A study of Mus musculus with 11 samples.

Results

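The cytochrome P450 genes of families 1 to 4 were measured in mouse liver after forced activation of Notch1 or Notch2 signaling. A gene was a member if its symbol, found through the RefSeq accession of its probe, belonged to family 1, 2, 3 or 4. Its probe also had to be well above background, by the scanner software's own flag, on 2 or more of the 11 arrays. Cyp2e1, Cyp1a2 and Cyp2f2 were set apart by the rule and are not described. Of 73 genes of these families in the RefSeq table, 70 had a probe, 10 of these were too dim, and 60 were kept, among 16637 genes measured in all. The dim genes were Cyp1b1, Cyp2b13, Cyp2b19, Cyp2b23, Cyp2c39, Cyp2c65, Cyp2c66, Cyp3a44, Cyp4f37 and Cyp4x1, and no probe was found for Cyp2j12, Cyp2j7 and Cyp4a32.

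All mice were male C57Bl6/J, were injected at 8 weeks of age with adeno-associated virus serotype 8 and gave liver RNA 5 days later. The vectors carried the CMV promoter, which is not restricted to hepatocytes. The dose summed to 6e+11 viral genomes a mouse. Mice of the GFP group (3 arrays) had GFP vector alone. The NICD1 group (3 arrays) received 3e+11 viral genomes of a vector for the Notch1 intracellular domain and as much GFP vector, and the NICD2 group (3 arrays) received the same with the Notch2 domain. The NICD1&2 group (2 arrays) received both Notch vectors and no GFP vector, so the absence of GFP cannot be told apart from the joint activation. The NICD1 and NICD2 groups also had less GFP vector than the GFP group, which cannot be told apart from the single activations. Replicates were labelled as separate samples without an animal identity, and P values measure the spread between these samples. The 3 comparisons against GFP share the same GFP arrays.

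P450 enzymes are haem proteins of the endoplasmic reticulum that oxidise drugs, steroids, bile acids and fatty acids, with electrons supplied by the reductase Por. In the liver, sensor receptors in the nucleus set the level of many of them: the aryl hydrocarbon receptor (Ahr) acts on Cyp1 genes, the constitutive androstane receptor (Nr1i3) and the pregnane X receptor (Nr1i2) act on Cyp2b, Cyp2c and Cyp3a genes, and the fatty acid receptor Ppara acts on Cyp4a genes. Several Cyp2 and Cyp3 genes also differ between male and female mouse liver under the control of growth hormone.

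The liver label held on the arrays. The mean log2 level of 8 hepatocyte marker genes lay between 8.06 and 8.33 on every array, where levels are relative to the 75th percentile of the array. Between 57.0% and 62.0% of spots were well above background, and no spot was saturated. The direct Notch target Nrarp was not well above background in the GFP group and was at least 1.62-fold higher with NICD1, where 2 of 3 arrays measured it, at least 5.87-fold higher with NICD2 and at least 8.92-fold higher with NICD1&2, each bound being set against the dimmest signal still above background. Of the 6 Notch targets measured, 3 had a higher and 3 a lower mean with NICD1 than with GFP (median log2 difference 0.04), and none but Nrarp met the study's definition of a change (P below 0.15 and over 1.8-fold). Hes1 differed by -0.03 with NICD1 (SE 0.45), 1.64 with NICD2 (SE 0.45) and 1.36 with NICD1&2 (SE 0.50), and met it in the last 2 groups, as Sox9 did with NICD1&2 (1.16, SE 0.31). The arrays lay on 2 slides, and GFP replicate 3 was the only GFP array on slide 2. The array format named in the study's methods differs from the deposited files, which hold 62976 spots an array and were used as they are.

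No P450 gene passed an adjusted P of 0.05 in limma. The members came from family 1 (1 gene), family 2 (39 genes), family 3 (6 genes) and family 4 (14 genes). With 0 of 60 called in each comparison, the lowest adjusted P values in limma were 0.641 for NICD1 against GFP, 0.340 for NICD2 against GFP, 0.221 for NICD1&2 against GFP, 0.999998 for NICD1 against NICD2 and 0.599 for the interaction, which asks whether the joint group departs from the sum of both single changes. Over all 36060 probes the share passing the same threshold was 0.00832%, 0.0527%, 0.0998%, 0.00277% and 0%, in that order. Without adjustment, limma gave P under 0.05 for 3, 8, 9, 7 and 3 members, or 5%, 13.3%, 15%, 11.7% and 5%, against 5.85%, 7.72%, 16.8%, 4.24% and 7.01% of all genes. The share was thus below that of all genes with NICD1, with NICD1&2 and for the interaction. It was above that of all genes with NICD2 and for NICD1 against NICD2. Most members differed little: the log2 difference was under 0.25 in size for 47 of 60 genes with NICD1, 45 with NICD2 and 41 with NICD1&2. The 95% interval of the difference lay wholly within 1.8-fold in either direction for 48, 48 and 49 of the 60 genes.

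**Figure D1:**
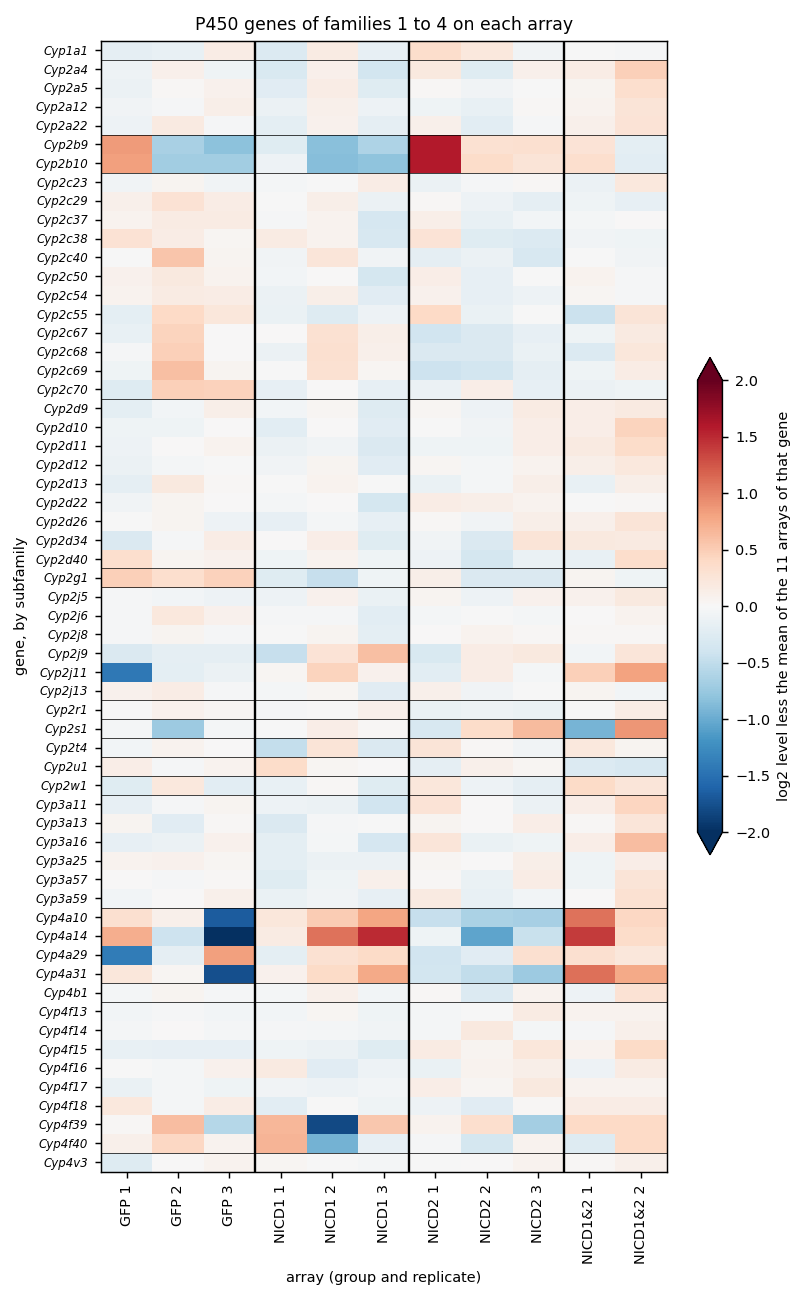
Heat map of the 60 P450 genes (rows, by subfamily) on the 11 arrays (columns, by group), coloured by log2 level less the mean of that gene over all arrays. Most rows are pale, and the strong colours lie in Cyp2b9, Cyp2b10, Cyp4a10, Cyp4a14 and Cyp4a31 in Cyp2s1, and in Cyp2j11, Cyp4a29, Cyp4f39 and Cyp4f40, which were not well above background on every array.

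The members' spread between replicates was close to that of other genes, with a median residual SD of 0.15 log2 units against 0.18 over all genes. A few members varied far more. Cyp4a14 had the largest residual SD of the 60 members (1.20), above that of 99.4% of all genes. Cyp2b10 (0.67), Cyp2b9 (0.66), Cyp4a10 (0.63) and Cyp4a31 (0.63) were each above 91.3% or more of all genes. The dim genes Cyp4f39 (0.85) and Cyp4a29 (0.65) varied as much.

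In the study a gene counted as changed past 1.8-fold where P was below 0.15. Here the unadjusted P of limma was used for this, on the 1 probe chosen per gene. By that definition 3 members were higher with NICD1 than with GFP (Cyp4a10, Cyp4a14 and Cyp4a31), or 5% of 60, against 1.32% of all genes, and none was lower (0.439% of all genes). With NICD2, 2 members were higher (Cyp2b9 and Cyp2b10) against 1.14% of all genes, and none was lower (0.613%). With NICD1&2, 4 members were higher (Cyp2j11, Cyp4a10, Cyp4a14 and Cyp4a31), or 6.67%, against 4.08% of all genes, and none was lower (1.06%). Between the single groups, 3 members were higher with NICD1 than with NICD2 (Cyp4a10, Cyp4a14 and Cyp4a31; 0.607% of all genes) and 2 were lower (Cyp2b9 and Cyp2b10; 0.451%). No member met the definition for the interaction by its chosen probe, against 3.12% of all genes. A second Cyp4f18 probe did meet it (log2 value 1.16, SE 0.42). The genes singled out in this way belong to 3 subfamilies only. By their chosen probes the other 54 members met the definition in none of these comparisons. A second Cyp4f16 probe met it, lower with NICD1&2 than with GFP (log2 difference -1.07, SE 0.51).

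The Cyp4a genes encode enzymes that hydroxylate fatty acids at their end carbon, and Cyp4a10, Cyp4a14 and Cyp4a31 are among the best known targets of Ppara. Cyp4a10 read 4.38, 4.16 and 2.39 on GFP replicates 1 to 3, 4.29, 4.57 and 4.85 with NICD1, 3.61, 3.42 and 3.39 with NICD2, and 5.14 and 4.47 with NICD1&2 (log2 levels). Its means were 3.64 ± 1.09 (SD, n = 3) with GFP, 4.57 ± 0.28 (SD, n = 3) with NICD1, 3.47 ± 0.11 (SD, n = 3) with NICD2 and 4.81 ± 0.48 (SD, n = 2) with NICD1&2. The NICD1 arrays overlapped the GFP arrays, while every NICD1 and NICD1&2 array was above every NICD2 array.

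Cyp4a31 followed the same order. Its log2 level was 5.91, 5.73 and 3.92 with GFP, 5.77, 6.07 and 6.44 with NICD1, 5.32, 5.20 and 4.97 with NICD2, and 6.78 and 6.45 with NICD1&2. Cyp4a14 read -0.95, -2.08 and -4.87 with GFP, -1.51, -0.59 and -0.18 with NICD1, -1.76, -2.73 and -2.12 with NICD2, and -0.27 and -1.30 with NICD1&2. In all 3 genes GFP replicate 3 was the lowest of the 11 arrays, and for Cyp4a14 it was not well above background there. NICD1 and NICD2 arrays did not overlap for any of the 3 genes.

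**Figure D2:**
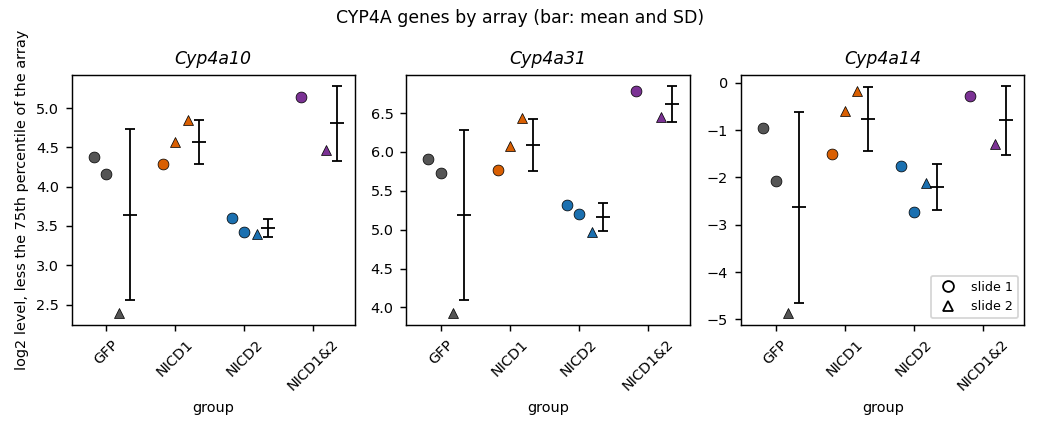
Log2 levels of Cyp4a10, Cyp4a31 and Cyp4a14 (vertical axis, relative to the 75th percentile of each array) by group. Each point is 1 array, circles are slide 1 and triangles slide 2, and bars give mean and SD. The lowest triangle in each GFP group is GFP replicate 3, and the NICD1 points lie above the NICD2 points.

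Between NICD1 and NICD2, Cyp4a10 was 2.14-fold higher with NICD1 (log2 difference 1.09, SE 0.46, 95% interval 0.05 to 2.14). Cyp4a31 was 1.91-fold higher (0.93, SE 0.46) and Cyp4a14 2.72-fold higher (1.44, SE 0.87), with adjusted P of 0.999998 in limma for all 3. An exact permutation test gave a two-sided P of 0.1 for each, the smallest that 3 arrays against 3 allow. This difference uses no GFP array. It was smaller on slide 1, at 0.77 for Cyp4a10, 0.51 for Cyp4a31 and 0.73 for Cyp4a14, than on slide 2, at 1.31, 1.29 and 1.74. Of the 3 genes, Cyp4a10 alone stayed past the definition without NICD1 replicate 3 (0.95) or without NICD2 replicate 3 (1.05). Cyp4a14 was less stable: it also lost the definition without NICD1 replicate 2 (1.36), without NICD2 replicate 2 (1.18) and without either NICD1&2 array (1.44, with a larger SE), and its difference was 0.76 with background correction by normexp. Within slide 1 none of the 3 genes met the definition.

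Against GFP, the Cyp4a difference depended on single arrays, above all on GFP replicate 3. For NICD1, the log2 difference of Cyp4a10 was 0.93 (SE 0.46) with all arrays and 0.30 without GFP replicate 3. That of Cyp4a31 was 0.91 (SE 0.46) and 0.28, and that of Cyp4a14, with 2 of 3 GFP arrays well above background, was 1.87 (SE 0.87) and 0.76. Without that array none of the 3 met the study's definition, and none did without NICD1 replicate 3 either (0.79, 0.74 and 1.59 in the order Cyp4a10, Cyp4a31, Cyp4a14). Within slide 1 the 3 genes differed in the same order by 0.02, -0.05 and 0.01 between NICD1 and GFP, and within slide 2, where GFP replicate 3 stands alone, by 2.32 for Cyp4a10 and 2.33 for Cyp4a31. Cyp4a14 was not well above background on that GFP array. Its measured signal there gives 22.4-fold higher with NICD1, and no detection floor entered this value, so it is not a firm minimum. With background correction by normexp, the Cyp4a14 difference was 0.76. The exact permutation test of NICD1 against GFP gave a two-sided P of 0.2 for each of the 3 genes.

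For NICD1&2 against GFP, all genes together stood 0.12 log2 units above GFP under the deposited scaling, and the values that follow are less this median. Cyp4a10 was higher by 1.05, Cyp4a31 by 1.31 and Cyp4a14 by 1.73, the last against a GFP mean in which only 2 of 3 arrays were well above background. Before that subtraction, leaving out GFP replicate 3 took the log2 differences from 1.16 to 0.54 for Cyp4a10, from 1.43 to 0.80 for Cyp4a31 and from 1.85 to 0.73 for Cyp4a14, all short of the study's definition. Without NICD1&2 replicate 1, Cyp4a31 alone of the 3 met it. Within slide 1, which lacks GFP replicate 3, they were 0.87, 0.96 and 1.24 in that order, each past 1.8-fold. The 1 array of the joint group there was above both GFP arrays. The Cyp4a10 and Cyp4a31 arrays of NICD1&2 did not overlap with those of GFP, and those of Cyp4a14 did. The exact permutation test gave two-sided P values of 0.3 for Cyp4a10, 0.2 for Cyp4a31 and 0.4 for Cyp4a14, where 0.1 is the smallest that 2 arrays against 3 allow. With NICD2 against GFP the log2 differences were -0.17 for Cyp4a10, -0.03 for Cyp4a31 and 0.43 for Cyp4a14, with 95% intervals wide enough to hold a change of 1.8-fold in at least 1 direction.

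Other probes of the same genes gave like values for NICD1 against NICD2. The other Cyp4a10 probes gave log2 differences of 1.13 and 1.06 and the other Cyp4a31 probe gave 1.18. For NICD1 against GFP they gave 1.01 and 0.75 for Cyp4a10, the 0.75 being short of 1.8-fold, and 1.08 for Cyp4a31. Cyp4a10 and Cyp4a31 are close copies of one another and of Cyp4a32, which had no probe, and binding of one gene's RNA to another's probe was not tested. Cyp4a29, the remaining member of the subfamily, was dim, not well above background on 1 GFP array, and its groups overlapped (log2 difference 0.42, SE 0.47, with NICD1).

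Genes that Ppara and other stress or nutrient sensors control outside the P450 families were also examined. Of 15 such genes, none met the study's definition with NICD1 or NICD2. Acot1, a fatty acyl-CoA thioesterase, alone met it with NICD1&2, at 5.67 and 5.61 against 4.38, 4.36 and 3.58 with GFP (log2 difference 1.53, SE 0.27, adjusted P in limma 0.098). Acot1 was thus also at its lowest of the 11 arrays on GFP replicate 3. Without that array its difference was 1.27, and it met the definition with any 1 array left out. For the interaction Acot1 met it as well, from 0.92 to 1.33 with 1 array left out. Vnn1, another target of Ppara, was 0.51 log2 units higher with NICD1 than with NICD2 (SE 0.21) with no overlap of arrays, but it was the highest of the list: 11 of the 15 genes were lower with NICD1 than with NICD2 and 4 higher, at a median of -0.11. Ppara itself differed by -0.13 with NICD1, -0.03 with NICD2 and 0.04 with NICD1&2 (SE 0.12, 0.12 and 0.13).

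Cyp2b9 and Cyp2b10 made up the second pair that differed between the single groups, in the opposite direction. Both encode steroid- and drug-metabolising enzymes, Cyp2b10 being the classic target of Nr1i3 and Cyp2b9 being higher in female than in male liver. Cyp2b10 read 3.61, 2.08 and 2.08 with GFP, 2.68, 1.93 and 1.99 with NICD1, 4.38, 3.16 and 3.05 with NICD2, and 3.11 and 2.57 with NICD1&2. Cyp2b9 read 2.72, 1.22 and 1.04 with GFP, 1.63, 1.03 and 1.25 with NICD1, 3.45, 2.18 and 2.19 with NICD2, and 2.15 and 1.67 with NICD1&2. In both genes the replicate numbered 1 was the highest array of its group in all 4 groups, each of these on slide 1, where GFP replicate 2 and NICD2 replicate 2 also lay without being raised. Every NICD2 array was above every NICD1 array.

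**Figure D3:**
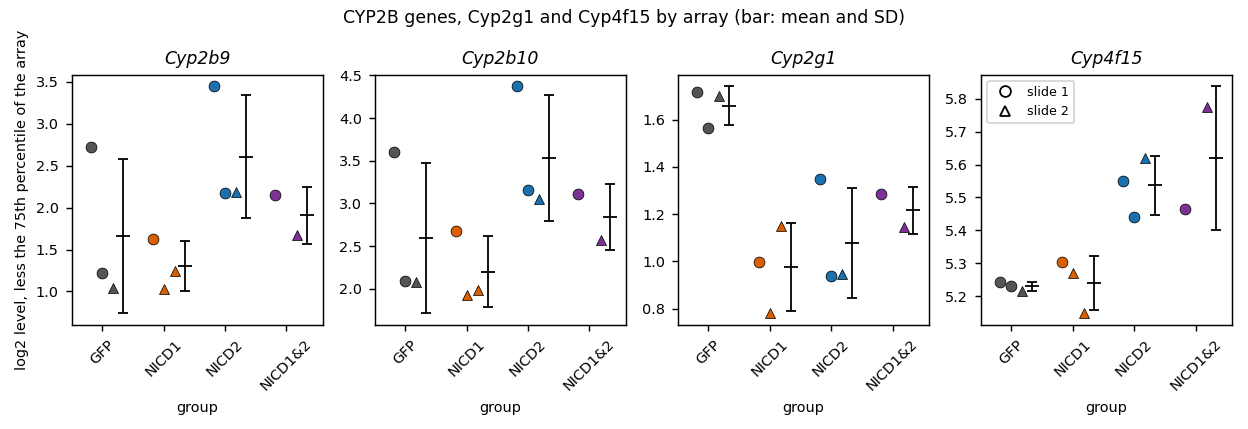
Log2 levels of Cyp2b9, Cyp2b10, Cyp2g1 and Cyp4f15 (vertical axis, relative to the 75th percentile of each array) by group. Each point is 1 array, circles are slide 1 and triangles slide 2, and bars give mean and SD. The Cyp2b points of NICD1 lie below those of NICD2, all Cyp2g1 points of the Notch groups lie below the 3 GFP points, and Cyp4f15 is higher in the groups that received NICD2.

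Cyp2b10 was 2.51-fold lower with NICD1 than with NICD2 (log2 difference -1.33, SE 0.49, 95% interval -2.43 to -0.22) and Cyp2b9 was 2.46-fold lower (-1.30, SE 0.48, 95% interval -2.39 to -0.21). The adjusted P in limma was 0.999998 for both, and the exact permutation test gave its smallest possible P of 0.1. Within slide 1 the differences were -1.09 for Cyp2b10 and -1.18 for Cyp2b9, and within slide 2 they were -1.09 and -1.05. Another Cyp2b10 probe gave -1.37. The sizes were alike on both slides, but within slide 1 neither gene met the study's definition, and within slide 2 both did.

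Against GFP, the NICD2 arrays overlapped GFP replicate 1. Each NICD2 array was above the GFP array of the same number, but whether the numbers pair the arrays is not known. Cyp2b10 was 1.91-fold higher with NICD2 (log2 difference 0.94, SE 0.49) and Cyp2b9 1.92-fold higher (0.94, SE 0.48), with adjusted P in limma of 0.798 and 0.790 and a two-sided exact permutation P of 0.3 for each. Both were past the study's definition, yet without NICD2 replicate 1 the differences were 0.51 and 0.52 and no longer were. Without GFP replicate 1 they were 1.44 and 1.47, and without GFP replicate 2 or 3 they lay between 0.64 and 0.72, also short of it. Within slides 1 and 2 they were 0.92 and 0.97 for Cyp2b10 and 0.84 and 1.14 for Cyp2b9, past the definition on slide 2 only. The other Cyp2b10 probe gave 1.18 (SE 0.49) for NICD2 against GFP with all arrays. By the chosen probes, NICD1 against GFP gave -0.39 (SE 0.49) for Cyp2b10 and -0.36 (SE 0.48) for Cyp2b9. Their 95% intervals reach from over 1.8-fold lower to 0.71 and 0.74 log2 units higher.

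The promoters of this pair are shown because both genes differed alike between the groups. The windows hold the 250 bases before the start used in the promoter table, on the plus strand of mouse chromosome 7 (RefSeq, GRCm38.p6), at chr7:26173159-26173408 for Cyp2b9 and chr7:25897408-25897657 for Cyp2b10. The annotated Cyp2b9 gene also has an earlier start, inside this window. In the Cyp2b9 window the capitals mark TGGGAA, the core letters bound by RBPJ, the DNA-binding partner of the Notch domains. In the Cyp2b10 window they mark GCGTG and its reverse complement, the core letters bound by Ahr with its partner Arnt.
Cyp2b9: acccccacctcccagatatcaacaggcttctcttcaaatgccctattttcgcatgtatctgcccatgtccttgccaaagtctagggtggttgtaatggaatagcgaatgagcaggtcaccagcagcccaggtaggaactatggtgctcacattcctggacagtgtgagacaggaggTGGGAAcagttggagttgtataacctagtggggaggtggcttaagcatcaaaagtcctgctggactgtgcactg
Cyp2b10: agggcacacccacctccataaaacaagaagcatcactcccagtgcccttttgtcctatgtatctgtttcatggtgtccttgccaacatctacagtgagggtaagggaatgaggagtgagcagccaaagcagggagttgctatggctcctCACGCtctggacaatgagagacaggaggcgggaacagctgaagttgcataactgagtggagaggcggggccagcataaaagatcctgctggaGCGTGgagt
The Cyp2b9 match starts 74 bases before the start used in the table. Of 240 aligned bases of both windows, 182 were identical (75.8%), and at the TGGGAA of Cyp2b9 the Cyp2b10 window carries T1C, with positions counted from 1 at the first letter of TGGGAA and the base of Cyp2b9 given first. A letter match is a description of the window and not a site shown to be bound.

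Promoter windows matched 48 of the 60 members and gave 54 windows, among 32851 windows of all genes. Cyp4a10, Cyp4a14, Cyp4a31 and Cyp2g1 were among the 12 members without one. TGGGAA, on either strand, was in 18 of the 54 member windows (33.3%) and in 21.6% of all windows. Since some genes have several windows, this came to 14 of 48 member genes (29.2%) against 24.1% of all genes. GCGTG was in 11 windows (20.4%) against 28.2%, and the nuclear receptor recognition letters AGGTCA were in 11 windows (20.4%) against 14.0%. Repeats of AGGTCA with 1 or 4 bases between, the spacings used by Ppara and by Nr1i3 or Nr1i2, were in none of the member windows and in 0.033% and 0.015% of all windows. TATAAA, the TATA box, was in 18 member windows (33.3%) against 12.4%, and these include Cyp1a1, Cyp2c29 and Cyp3a11.

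Cyp2g1 was the member with the lowest unadjusted P in limma for NICD1 and for NICD2 against GFP. With NICD1&2 it was not. It encodes a P450 known best from the olfactory mucosa, where it acts on steroids and odorants. Its log2 level was 1.72, 1.56 and 1.70 with GFP, 0.998, 0.78 and 1.15 with NICD1, 1.35, 0.94 and 0.95 with NICD2, and 1.29 and 1.15 with NICD1&2. All 8 arrays of the Notch groups lay below all 3 GFP arrays. The log2 difference was -0.68 (SE 0.14) with NICD1, -0.58 (SE 0.14) with NICD2 and -0.44 (SE 0.16) with NICD1&2, or 1.61-fold, 1.50-fold and 1.36-fold lower, under the study's 1.8-fold. Adjusted P values in limma were 0.641, 0.340 and 0.275. The differences held within both slides, at -0.64 and -0.73 for NICD1, -0.50 and -0.75 for NICD2 and -0.35 and -0.55 for NICD1&2. Since the 3 comparisons share the GFP arrays, the agreement of their directions is not independent. Cyp2g1 was also the member with the lowest P for the interaction (log2 value 0.82, SE 0.21, adjusted P in limma 0.599).

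The Cyp2c subfamily, whose enzymes oxidise drugs and make signalling fats from arachidonic acid, had 12 members. With NICD2 all 12 had a lower mean than with GFP, at a median log2 difference of -0.25, where the median over all genes was 0.02 and 55.2% of all genes were higher. With NICD1&2, 11 of 12 were lower (median -0.16 against 0.12 over all genes), and with NICD1, 10 of 12 (median -0.19 against 0.00; 8 of 12 under normexp scaling). The counts of lower genes for NICD2 stood at 12 under quantile and normexp scaling too. None of the 12 met the study's definition in any comparison, and with NICD2 the lowest adjusted P in limma among them was 0.626.

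**Figure D4:**
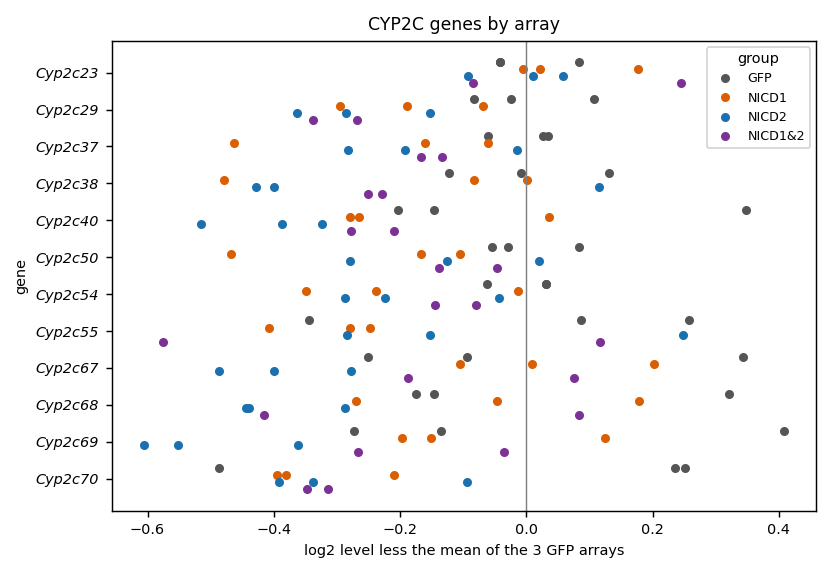
Log2 level of the 12 Cyp2c genes (rows) on each array, less the mean of the 3 GFP arrays, with 1 point an array coloured by group. The NICD2 points of Cyp2c40, Cyp2c67, Cyp2c68 and Cyp2c69 lie to the left of the GFP points of the same row, and GFP replicate 2 is the rightmost point in these rows.

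Cyp2c67, Cyp2c68, Cyp2c69 and Cyp2c40, closely related copies within this cluster, were the ones whose NICD2 arrays lay below all GFP arrays, together with Cyp2c29. Cyp2c69 read 6.57, 7.25 and 6.71 with GFP, 6.65, 6.97 and 6.69 with NICD1, 6.24, 6.29 and 6.48 with NICD2, and 6.58 and 6.81 with NICD1&2. It was lower by 0.51 with NICD2 (log2 difference -0.51, SE 0.18, adjusted P in limma 0.626), and by 0.30 without GFP replicate 2 (log2 difference -0.30). Cyp2c67 differed by -0.39 (SE 0.17), Cyp2c68 by -0.39 (SE 0.19) and Cyp2c40 by -0.41 (SE 0.16). Leaving out GFP replicate 2 gave -0.22 for Cyp2c67 and -0.23 for Cyp2c40, so 1 GFP array made up much of these differences. NICD1 arrays were above all NICD2 arrays for these 4 genes, by 0.43 for Cyp2c69 (SE 0.18) and 0.42 for Cyp2c67 (SE 0.17). Signal shared between such copies was not tested.

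Cyp2c29, an abundant liver member and a target of Nr1i3, read 7.39, 7.58 and 7.45 with GFP, 7.29, 7.41 and 7.18 with NICD1, 7.32, 7.19 and 7.11 with NICD2, and 7.21 and 7.14 with NICD1&2. Its NICD2 and NICD1&2 arrays were below all GFP arrays, with log2 differences of -0.27 (SE 0.10) and -0.30 (SE 0.11). Of the 7 genes listed as inducible through Nr1i3 or Nr1i2, all 7 had a lower mean with NICD1, at a median of -0.23. With NICD2, 5 were lower and 2 higher, and only Cyp2b10 met the study's definition. Cyp3a11, the main target of Nr1i2, read 6.74, 6.88 and 6.95 with GFP, 6.80, 6.79 and 6.51 with NICD1, 7.18, 6.91 and 6.79 with NICD2, and 7.03 and 7.32 with NICD1&2. It differed by -0.16, 0.10 and 0.32 (SE 0.14, 0.14 and 0.16) with NICD1, NICD2 and NICD1&2. Cyp2c55, another gene of this list, read 0.03, 0.63 and 0.46 with GFP, 0.10, -0.03 and 0.13 with NICD1, 0.62, 0.09 and 0.22 with NICD2, and -0.20 and 0.49 with NICD1&2. Its groups overlapped, and it differed by -0.31, -0.06 and -0.23 (SE 0.22, 0.22 and 0.25) in the same order.

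The sensors themselves were measured as well. Ahr read 3.45, 3.06 and 3.76 with GFP and 4.15, 3.98 and 3.82 with NICD2, with no overlap (log2 difference 0.56, SE 0.23, adjusted P in limma 0.711). Its target Cyp1a1 was dim but well above background, at -2.37, -2.33 and -2.04 with GFP, -2.45, -2.01 and -2.34 with NICD1, -1.83, -1.98 and -2.25 with NICD2, and -2.20 and -2.21 with NICD1&2. Its NICD2 and GFP arrays overlapped (log2 difference 0.22, SE 0.16). Nr1i2 was higher with NICD1&2 than with GFP by 0.82 (SE 0.16, adjusted P in limma 0.124), just under the study's 1.8-fold. Nr1i3 differed by -0.11, 0.00 and 0.15 with NICD1, NICD2 and NICD1&2 (SE 0.14, 0.14 and 0.16). Among 20 regulators measured, Bcl6, a repressor active in male liver, was the only one to meet the definition, at 3.94, 2.76 and 1.87 with NICD1 against 4.81, 2.49 and 4.84 with GFP (log2 difference -1.19, SE 0.69, adjusted P in limma 0.910). These groups overlapped, and the difference was short of the definition without GFP replicate 1 (-0.81), GFP replicate 3 (-0.79), NICD1 replicate 2 (-1.14) or NICD1 replicate 3 (-0.70), while it was -1.97 without GFP replicate 2. For the interaction Bcl6 was also the only regulator past it (log2 value 2.27, SE 1.03, adjusted P in limma 0.710), from 1.78 to 3.05 with 1 array left out.

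The P450 proteins depend on shared partners for electrons and haem. Of 14 genes for electron transfer and haem supply, none met the definition in the 3 comparisons against GFP or between the single groups. For the interaction Alas1 (log2 value -0.89, SE 0.55) and the haem-degrading Hmox1 (1.19, SE 0.41) met it, with adjusted P values in limma of 0.724 and 0.691. The Alas1 value was -0.48 without GFP replicate 1 and short of the definition, and also without NICD1 replicate 2 or 3, NICD2 replicate 2 or 3 or NICD1&2 replicate 1 (-0.86 to -0.67). Por was highest with NICD1&2, at 7.54 and 7.72 against 7.04, 6.78 and 7.07 with GFP (log2 difference 0.66, SE 0.20, adjusted P in limma 0.220). With NICD1 and NICD2 the Por difference was 0.06 and 0.31 (SE 0.17 each). Alas1, the first enzyme of haem synthesis, was 7.19 on GFP replicate 1 and 7.97 or more on the other arrays, and differed by 0.51, 0.66 and 0.28 (SE 0.37, 0.37 and 0.41).

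The Cyp4f subfamily includes enzymes that inactivate leukotrienes, and its member Cyp4f15 was higher wherever NICD2 was given. Cyp4f15 read 5.24, 5.23 and 5.22 with GFP, 5.30, 5.27 and 5.15 with NICD1, 5.55, 5.44 and 5.62 with NICD2, and 5.47 and 5.77 with NICD1&2. The log2 difference was 0.31 (SE 0.11) with NICD2 and 0.39 (SE 0.12) with NICD1&2, with adjusted P in limma of 0.593 and 0.227, and 0.01 (SE 0.11) with NICD1. Less the median of all genes, the NICD1&2 value was 0.27. Cyp4f17 differed by 0.21 (SE 0.08) with NICD2 and by 0.01 (SE 0.08) with NICD1. The NICD1 arrays of both genes were below all NICD2 arrays, at -0.30 for Cyp4f15 and -0.21 for Cyp4f17. These are small differences with narrow spread, all under 1.8-fold.

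Cyp2j11 was the remaining gene past the study's definition, and it was dim. It read -5.09, -3.85 and -3.77 with GFP, the first not well above background, and -3.62, -3.21 and -3.57 with NICD1, -3.87, -3.51 and -3.69 with NICD2, and -3.19 and -2.85 with NICD1&2. With NICD1&2 it was 2.33-fold higher (log2 difference 1.22, SE 0.36, adjusted P in limma 0.221) than a GFP mean in which 2 of 3 arrays were well above background, where the median of all genes was 0.12 higher. Without GFP replicate 1 the difference was 0.79, and with normexp correction it was 0.25. Cyp4f39 and Cyp4f40 were not well above background on either NICD1&2 array, Cyp4f40 on no NICD2 array as well, and no fold is given for them.

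**Figure D5:**
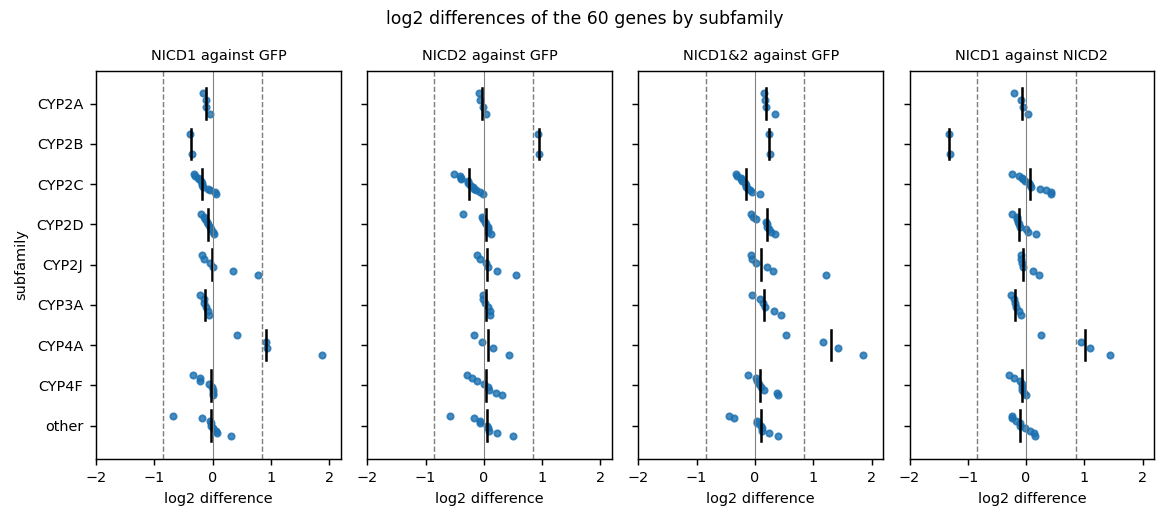
Log2 differences of the 60 genes (points) by subfamily (rows) in 4 comparisons (panels), with the median of each subfamily as a black bar and the study's 1.8-fold as dashed lines. Cyp4a10, Cyp4a14, Cyp4a31, Cyp2b9, Cyp2b10 and Cyp2j11 are the points past the dashed lines, and the Cyp2c points lie left of 0 with NICD2.

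Genes whose arrays did not overlap between groups were counted as well. With NICD1, 2 of 60 members lay above all GFP arrays (3.33%, against 7.36% of all genes) and 5 below (8.33%, against 6.7%). With NICD2, 3 lay above (5%, against 9.67%) and 8 below (13.3%, against 6.59%), of which Cyp2c29, Cyp2c40, Cyp2c67, Cyp2c68 and Cyp2c69 are of the Cyp2c subfamily. With NICD1&2, 18 lay above (30%, against 26.2%) and 7 below (11.7%, against 10.9%). Between the single groups, 9 members were higher with NICD1 (15%, against 4.12%) and 7 lower (11.7%, against 6.8%). The 9 were Cyp4a10, Cyp4a14, Cyp4a31, Cyp2c40, Cyp2c67, Cyp2c68, Cyp2c69, Cyp2d40 and Cyp2r1, and the 7 were Cyp2b9, Cyp2b10, Cyp2d22, Cyp3a13, Cyp3a25, Cyp4f15 and Cyp4f17.

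By the chosen probes, no gene of the remaining large subfamilies reached 1.8-fold apart from Cyp2j11. The chosen probe of Cyp4f16 had means of -1.56 with GFP and -1.54 with NICD1&2. Its second probe gave a log2 difference of -1.07 (SE 0.51) between these groups, past 1.8-fold. The 9 Cyp2d genes, drug-metabolising enzymes with many close copies in the mouse, had a median log2 difference of -0.08 with NICD1, 0.04 with NICD2 and 0.20 with NICD1&2. They lay between -0.19 and 0.02, between -0.36 and 0.12 and between -0.06 and 0.35 in that order. The lowest with NICD2 was Cyp2d40 (SE 0.15, adjusted P in limma 0.711), whose NICD2 arrays were below all GFP arrays, and the highest with NICD1&2 was Cyp2d10 (SE 0.13, adjusted P in limma 0.285), whose NICD1&2 arrays were above them. Under quantile scaling these medians were 0.02, 0.02 and 0.00, so the NICD1 sign and the NICD1&2 shift depended on the scaling. The 4 Cyp2a genes lay between -0.16 and 0.04 in both single groups against GFP and between 0.15 and 0.34 with NICD1&2, where under quantile scaling 2 were higher and 2 lower. The 6 Cyp3a genes lay between -0.21 and -0.07 with NICD1, between -0.02 and 0.11 with NICD2 and between -0.04 and 0.44 with NICD1&2. Cyp3a16 was the highest of these with NICD1&2, at 0.33 above the median of all genes, and under quantile scaling 3 of the 6 were higher and 3 lower in that group. The 6 Cyp2j genes had medians of -0.02, 0.05 and 0.11 with NICD1, NICD2 and NICD1&2, with Cyp2j11 the highest each time. The 8 Cyp4f genes, 2 of them dim, had medians of -0.04, 0.04 and 0.09, and 3, 5 and 7 of them had a higher mean than with GFP. Over all 60 members the median difference was -0.07 with NICD1, -0.01 with NICD2 and 0.12 with NICD1&2, beside 0.00, 0.02 and 0.12 over all genes.

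Markers of other cell types and of inflammation differed between some of these groups. The 6 bile duct markers had a mean level of -2.30 to -1.99 with GFP, -1.63 to -1.39 with NICD1, -1.56 to -1.31 with NICD2 and -1.27 to -1.17 with NICD1&2. All 6 had a higher mean in each Notch group. Spp1, which bile duct cells and stressed hepatocytes make, passed the adjusted threshold in limma with NICD2 (log2 difference 1.81) and NICD1&2 (2.23). With NICD1 it met the study's definition (1.71), but no bile duct marker passed the adjusted threshold (lowest adjusted P in limma 0.096). Il1b, an inflammatory cytokine, was lower in all Notch arrays (-2.00, -2.34 and -1.74 against GFP with NICD1, NICD2 and NICD1&2). With NICD1, all 8 Kupffer and myeloid markers had a lower mean than with GFP (median -0.27; list means 0.82 to 1.07 against 0.89 to 1.37), as did all 12 interferon response genes (median -0.27) and 15 of 16 acute phase genes (median -0.29). With NICD2 the counts of lower genes were 5 of 8, 11 of 12 and 10 of 16, and with NICD1&2 they were 6 of 8, 10 of 12 and 8 of 16. The part of these shifts in the P450 values was not tested. In bulk liver, fewer cells of a type and less RNA per cell cannot be told apart.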

How the data were processed

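Liver RNA of 11 samples was hybridised to Agilent 1-colour mouse arrays. The authors scanned and extracted the arrays with Feature Extraction 11.5.1.1, and the deposited scanner files hold processed signal intensity per spot. The table deposited by the authors holds log2 processed signal less the 75th percentile of each array (set against the scanner files; column medians between -4.1 and -3.5). Groups were taken from the labels. Probes well above background on 2 or more arrays were kept (36060 of 56605), and 1 probe with the highest mean stood for each gene, named through RefSeq accessions. limma 3.58.1 (R 4.3.3) was fitted to 4 group means with Benjamini-Hochberg adjustment over all probes, after a test on simulated data. The study's definition (P under 0.15, fold over 1.8) was counted too. Array number limits precision. Single genes were also tested by exact permutation. Array-by-array values were given for members past the definition with no overlap of arrays and for named receptor targets, and for Cyp2g1, Cyp2c69 and Cyp4f15, chosen after their values were seen. Leaving out arrays for genes of other lists was also added after seeing the data. The members and lists were chosen with earlier results of these data known. Promoters were RefSeq GRCm38.p6 windows, aligned with Biopython 1.88. The authors' labels and methods name different RNA kits. One result among other drug-metabolism genes is not reported here.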

Additional observations from a re-analysis of the deposited data

How the results depend on the processing

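No P450 gene passed an adjusted P of 0.05 in limma under any alternative, in any comparison, and the counts below are of members past the study's definition. Leaving out 1 array at a time gave 0 to 4 with NICD1 against GFP (3 with all arrays; 0 without NICD1 replicate 3), 0 to 3 with NICD2 (2; 0 without GFP replicate 2, GFP replicate 3 or NICD2 replicate 1, and 3 without GFP replicate 1), 2 to 4 with NICD1&2 (4; 2 without GFP replicate 3), 3 to 5 between NICD1 and NICD2 (5; 3 without NICD1 replicate 3 or NICD2 replicate 3) and 0 to 2 for the interaction (0; 2 without GFP replicate 3 or NICD1&2 replicate 2). The 2 genes without GFP replicate 3 were Cyp2j11 and Cyp4a29 for NICD1 and for NICD1&2. No Cyp4a10, Cyp4a14 or Cyp4a31 call against GFP was left in that setting. Slide 1 lacks GFP replicate 3 too, yet NICD1&2 against GFP stayed past 1.8-fold there. It was 0.87 for Cyp4a10 and 0.96 for Cyp4a31, with 1 joint array. At P under 0.05 and a fold over 2 the counts were 0, 0, 2 and 3 for the first 4 comparisons. Within slide 1 they were 0 for NICD1, 0 for NICD2, 1 for NICD1 against NICD2 and 4 for the interaction, and within slide 2 they were 5 for NICD2 and 4 for the interaction, with lone arrays assumed to vary like the rest. The 1 gene between NICD1 and NICD2 within slide 1 was Cyp4f40, close to background, so none of the 5 genes called with all arrays was left there. The 5 for NICD2 within slide 2 were Cyp2b9, Cyp2b10, Cyp4a10, Cyp4a14 and Cyp4a31, against GFP replicate 3 alone. For the interaction Cyp4a10 and Cyp4a14 were called within both slides, with a positive value on slide 1 and a negative one on slide 2. Normexp correction gave 1 for NICD2 and 2 for NICD1&2, probes well above background on all arrays gave 2 for NICD1&2, the compared groups alone gave 0 for NICD2, and array weights gave 1 for the interaction. The causes were not tested. Among 36 differences of single genes, 1 changed sign, that of Cyp4a31 with NICD1 within slide 1 (-0.0473). Residual correlations between same-numbered arrays of different groups ran from -0.41 to 0.17, with 6 of 15 above 0.1. Between other-numbered arrays they ran from -0.29 to 0.46, with 7 of 30 above 0.1. Whether the replicate numbers pair the arrays was thus not settled. With the replicate block the counts were 3, 2, 3, 5 and 0, which changed none by over 1.5 times. Signal close to background limits Cyp2j11, Cyp4a14, Cyp4a29, Cyp4f39 and Cyp4f40.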

Other observations

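Among 12 measured P450 genes outside families 1 to 4, none passed an adjusted P of 0.05 in limma, and 2 met the study's definition with NICD1&2, both higher, where 4.08% of all genes did. Cyp39a1, an oxysterol hydroxylase of bile acid synthesis, read 2.65, 2.02 and 2.62 with GFP, 3.49, 3.52 and 2.83 with NICD2, and 3.55 and 3.56 with NICD1&2. Its log2 difference was 0.85 (SE 0.24) with NICD2 and 1.12 (SE 0.26) with NICD1&2. Cyp26b1, which degrades retinoic acid, ranged from -0.32 to 2.08 with GFP and read 2.21 and 2.63 with NICD1&2. Cyp7a1, the rate-limiting enzyme of bile acid synthesis, was above all GFP arrays (2.23, 2.50 and 2.96) with NICD1 (3.37, 2.98 and 3.18) and with NICD2 (3.47, 3.15 and 3.60), but read 2.94 and 2.79 with NICD1&2, overlapping GFP. It met the study's definition for the interaction (log2 value -1.16, SE 0.30, adjusted P in limma 0.599), as 3.12% of all genes did.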
